A study of Homo sapiens with 26 samples.

Results

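The DNA replication machinery is described here through 54 genes, listed by their known function, that cover origin recognition and licensing, the MCM2-7 helicase and its activation, the polymerases and primase, the clamp with its loader and the processing of Okazaki fragments, nucleotide supply, chromatin assembly and fork protection. All 54 are among the 17283 genes of the array and all 54 passed the filter on low values, which left 12962 genes for the tests. The cells were HCT116, an established line from a human colon carcinoma, and the drug was leptomycin B, a covalent inhibitor of XPO1, the receptor that carries many proteins and some RNAs out of the nucleus. Total RNA of HCT116 cells labelled wild type for p53 or p53 knockout (WT-labelled and KO-labelled below) was measured on 26 Illumina arrays after 16 h with or without the drug. Each label had 7 untreated arrays, 3 at the higher dose of 20 nM and 3 at the lower dose of 2 nM. The labels call the lines isogenic and do not say how many knockout clones were used. Their slide numbers place untreated arrays 4 to 6 with the 20 nM arrays in a first series of slides, and untreated arrays 7 to 10 with the 2 nM arrays in a second, so that dose and slide series cannot be told apart. The question set by the design is how the drug, at each dose, changed expression in cells of each label.

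Before a cell can copy its DNA, the origin recognition complex, CDC6 and CDT1 load the ring-shaped MCM2-7 helicase onto origins during G1. At the start of S phase the kinase CDC7 with its partner DBF4 sets off the binding of CDC45 and the GINS complex, which together with MCM10 turn the loaded ring into an active helicase, and polymerases alpha, delta and epsilon then copy both strands behind the sliding clamp PCNA. Many of these genes are transcribed as cells approach S phase, by E2F transcription factors that the RB family holds in check, so their messenger RNAs are commonly used as signs of a proliferating culture. In a bulk sample, a smaller share of cells near S phase and less RNA per such cell cannot be told apart.

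Promoters are shown first because E2F binding sites near the start of these genes are a textbook feature of the group. RefSeq promoter windows (build GRCh38.p14, 250 bases before to 50 after a gene's start) matched 48 of the 54 genes. The letters TTTCCCGC, TTTCGCGC, TTTGCCGC and TTTGGCGC, 4 forms of the E2F consensus, were searched on both strands with overlaps allowed. At least 1 of them stood in the windows of 22 of the 48 genes, which is 45.8%, against 3.99% of the 27305 genes with a window. By comparison the CHR letters TTTGAA were found for 8.33% of the members and 18.2% of all genes, and CCAAT for 60.4% of the members and 39.7% of all genes. A match describes the letters of a window and is not evidence of binding. Close variants of the 4 forms, such as TTTGGCGG, were not searched. That variant stands in lower case in the CDT1 and POLA2 windows, so the matches are not a full tally. The 5 windows below, read 5′ to 3′ with the E2F-type letters in capitals, belong to genes that fell in every response (MCM6, POLA2), fell in 3 of 4 (CDT1), moved in both directions (MCM2) or rose in every response (POLE3). MCM6 (chr2:135876394-135876693, minus strand) has 4 matches in overlapping pairs. POLA2 (chr11:65261712-65262011, plus strand) has 1 match, starting at position -53 from the gene's start. CDT1 (chr16:88803539-88803838, plus strand) has 1 match at position -35. MCM2 (chr3:127598161-127598460, plus strand) has 2 overlapping matches, and the POLE3 window with the most upstream start (chr9:113410700-113410999, minus strand) has 0.
MCM6: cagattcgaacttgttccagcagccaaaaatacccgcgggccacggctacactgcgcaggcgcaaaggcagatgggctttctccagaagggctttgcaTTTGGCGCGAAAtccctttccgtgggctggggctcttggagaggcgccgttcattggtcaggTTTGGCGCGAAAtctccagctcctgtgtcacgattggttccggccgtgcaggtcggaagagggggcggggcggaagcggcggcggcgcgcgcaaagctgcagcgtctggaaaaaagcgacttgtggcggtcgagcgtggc
POLA2: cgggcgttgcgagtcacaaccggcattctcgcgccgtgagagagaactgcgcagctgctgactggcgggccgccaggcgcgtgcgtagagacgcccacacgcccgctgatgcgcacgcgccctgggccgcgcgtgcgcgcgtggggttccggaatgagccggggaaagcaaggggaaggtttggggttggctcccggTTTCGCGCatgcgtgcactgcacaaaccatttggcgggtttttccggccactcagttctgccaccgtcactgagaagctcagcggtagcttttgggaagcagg
CDT1: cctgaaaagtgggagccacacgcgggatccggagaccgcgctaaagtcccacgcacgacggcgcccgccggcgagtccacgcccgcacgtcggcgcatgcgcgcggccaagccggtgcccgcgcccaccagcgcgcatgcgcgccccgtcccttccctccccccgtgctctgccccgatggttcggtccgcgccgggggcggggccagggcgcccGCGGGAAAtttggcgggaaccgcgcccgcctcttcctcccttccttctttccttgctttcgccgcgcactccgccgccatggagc
MCM2: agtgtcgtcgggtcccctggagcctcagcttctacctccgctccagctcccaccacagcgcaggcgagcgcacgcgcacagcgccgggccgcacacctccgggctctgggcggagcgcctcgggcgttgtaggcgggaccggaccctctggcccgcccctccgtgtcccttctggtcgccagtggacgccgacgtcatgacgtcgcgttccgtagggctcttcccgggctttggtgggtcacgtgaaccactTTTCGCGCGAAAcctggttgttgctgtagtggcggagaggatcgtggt
POLE3: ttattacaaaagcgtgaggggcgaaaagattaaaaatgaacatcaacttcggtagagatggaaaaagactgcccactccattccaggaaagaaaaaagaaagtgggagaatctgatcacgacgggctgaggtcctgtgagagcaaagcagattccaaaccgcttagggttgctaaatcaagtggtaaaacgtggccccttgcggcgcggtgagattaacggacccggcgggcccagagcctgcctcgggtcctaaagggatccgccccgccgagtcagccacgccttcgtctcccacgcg
By response, the letters stood in 16 of the 27 genes with a window that fell in at least 3 responses (59.3%), in 2 of 11 that fell in 1 or 2 (18.2%) and in 4 of 10 that fell in none (40%).

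Arrays and labels were checked before any comparison. The number of arrays limits the precision, and the labels do not say that replicates came from separate cultures, so the p-values below speak only of the spread among these samples, part of which may be technical. CDKN1A, a cyclin-dependent kinase inhibitor that p53 activates, had an intensity of 5212 to 17963 on the untreated WT-labelled arrays of the first series and 1291 to 3463 on the KO-labelled ones. The second series had the order reversed, with 615 to 1016 on WT-labelled and 4031 to 4672 on KO-labelled arrays, and 19727 to 21890 on the 3 KO-labelled arrays at 2 nM against 1198 to 1311 on the WT-labelled ones. The second series therefore goes against the p53 labels by this gene, as it does by more of the p53-activated genes given below. Hence "WT-labelled" and "KO-labelled" name the label only. Untreated arrays 4 and 10 of both labels stood apart from the other arrays of their groups: 896 and 1369 genes on the WT-labelled and KO-labelled array 4, and 338 and 563 on array 10, differed over 2-fold from the others, against 3 to 159 on the remaining untreated arrays. Of 7 epithelial markers, 5 lay above the intensity floor of 10 on all 26 arrays (summed intensity 26865 to 41692), while CDH1 lay above it on 17 arrays and CLDN4 on 6. Of 11 fibroblast markers 9 never exceeded the floor (sums 28.1 to 58.8). Of 14 blood and endothelial markers 8 never did, including CD3E, CD3D and PECAM1, and their sums were 109 to 173 on untreated arrays, 289 to 313 on KO-labelled arrays at 20 nM, 294 to 326 on WT-labelled arrays at 2 nM and 146 to 190 on the other treated arrays. HBA1 rose in all 4 responses and averaged 178 and 203 in the 2 highest of these groups. CD14 also rose in all 4, by 1.06, 1.20, 1.24 and 0.89 on the log2 scale, from untreated means under the floor of 10 to treated means of 18.6 to 27.5, and CD68 fell at 2 nM in both labels, by 0.79 and 0.95. The part of these genes in the results was not tested.

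Replication genes fell in all 4 responses, and the falls were deepest in WT-labelled cells at 20 nM and in KO-labelled cells at 2 nM. At 20 nM, 38 of the 54 genes fell and 3 rose in WT-labelled cells, with a median log2 difference of -0.81, where 22.2% of all genes tested were called lower and 21.1% higher. KO-labelled cells at 20 nM had 23 genes lower and 7 higher with a median of -0.19, against 18.8% and 18.3% of all genes. At 2 nM the WT-labelled arrays had 27 genes lower and 5 higher with a median of -0.36, against 19.1% and 17.4%. KO-labelled cells at 2 nM had 40 genes lower and 2 higher with a median of -0.98, against 21.8% and 21.6%. The median over all genes was 0 in each. Of the genes tested, 1489 never exceeded the floor on any array, so their differences were 0, which lowers the shares given for all genes. The calls rest on limma's moderated test with Benjamini-Hochberg adjustment over all 12962 genes (adjusted p under 0.05), and a response is the mean of the treated arrays less that of the untreated ones with the same label and slide series. In the first series no slide held both treated and untreated arrays, so drug and slide cannot be told apart there. Each slide of the second series held treated and untreated arrays of its label. Falls of over 2-fold were called for 24, 5, 8 and 26 members in the same order of responses, against 8.15%, 5.38%, 4.38% and 7.07% of all genes. In the fit restricted to the arrays compared, which has fewer degrees of freedom, the count of 23 dropped to 14, and among the genes with values on each array the calls at 20 nM of ORC3, TIPIN and PCNA in KO-labelled and of MCM2, RRM2 and PCNA in WT-labelled cells were lost.

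**Figure D1:**
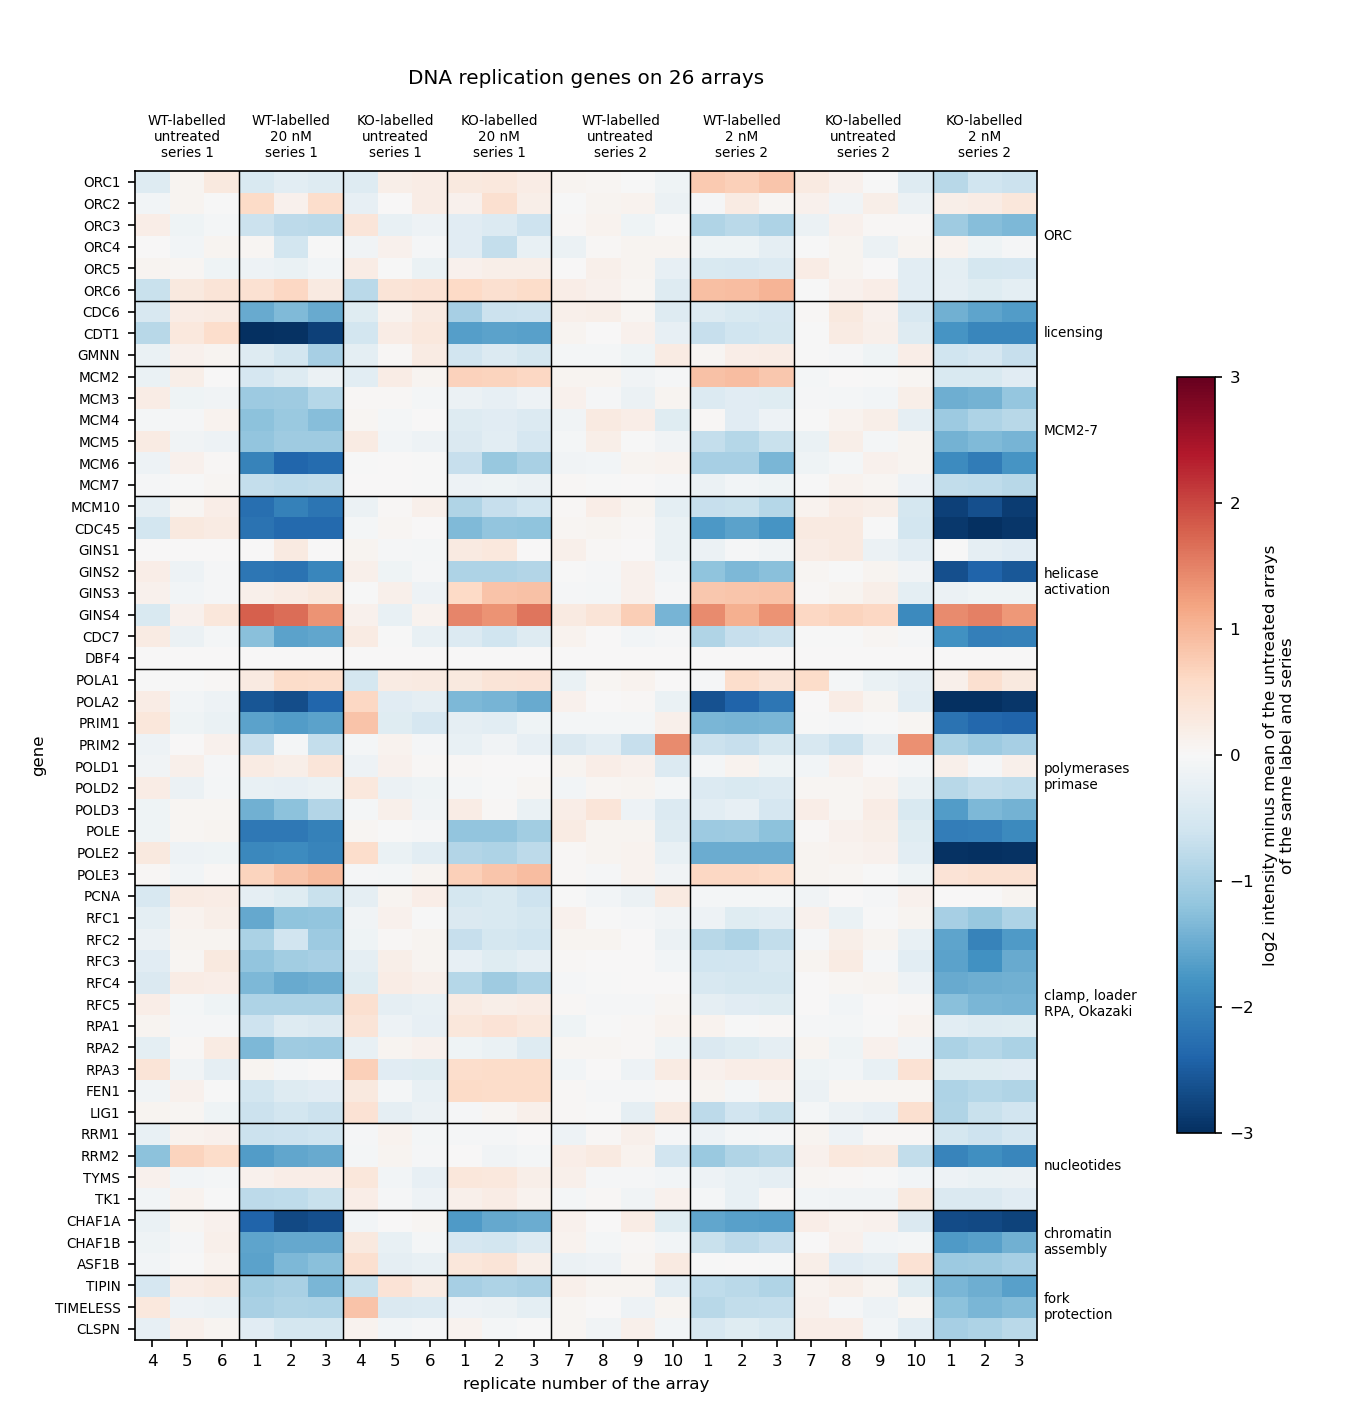
Log2 intensity of the 54 replication genes on each of the 26 arrays, each gene as its difference from the mean of the untreated arrays of the same label and slide series, with genes in rows by role and arrays in columns by label, dose and series. Blue marks lower and red higher values, with the colour scale ending at 3 log2 units either way; the blue blocks are widest in WT-labelled cells at 20 nM, where 38 genes fell, and in KO-labelled cells at 2 nM, where 40 fell.

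**Figure D2:**
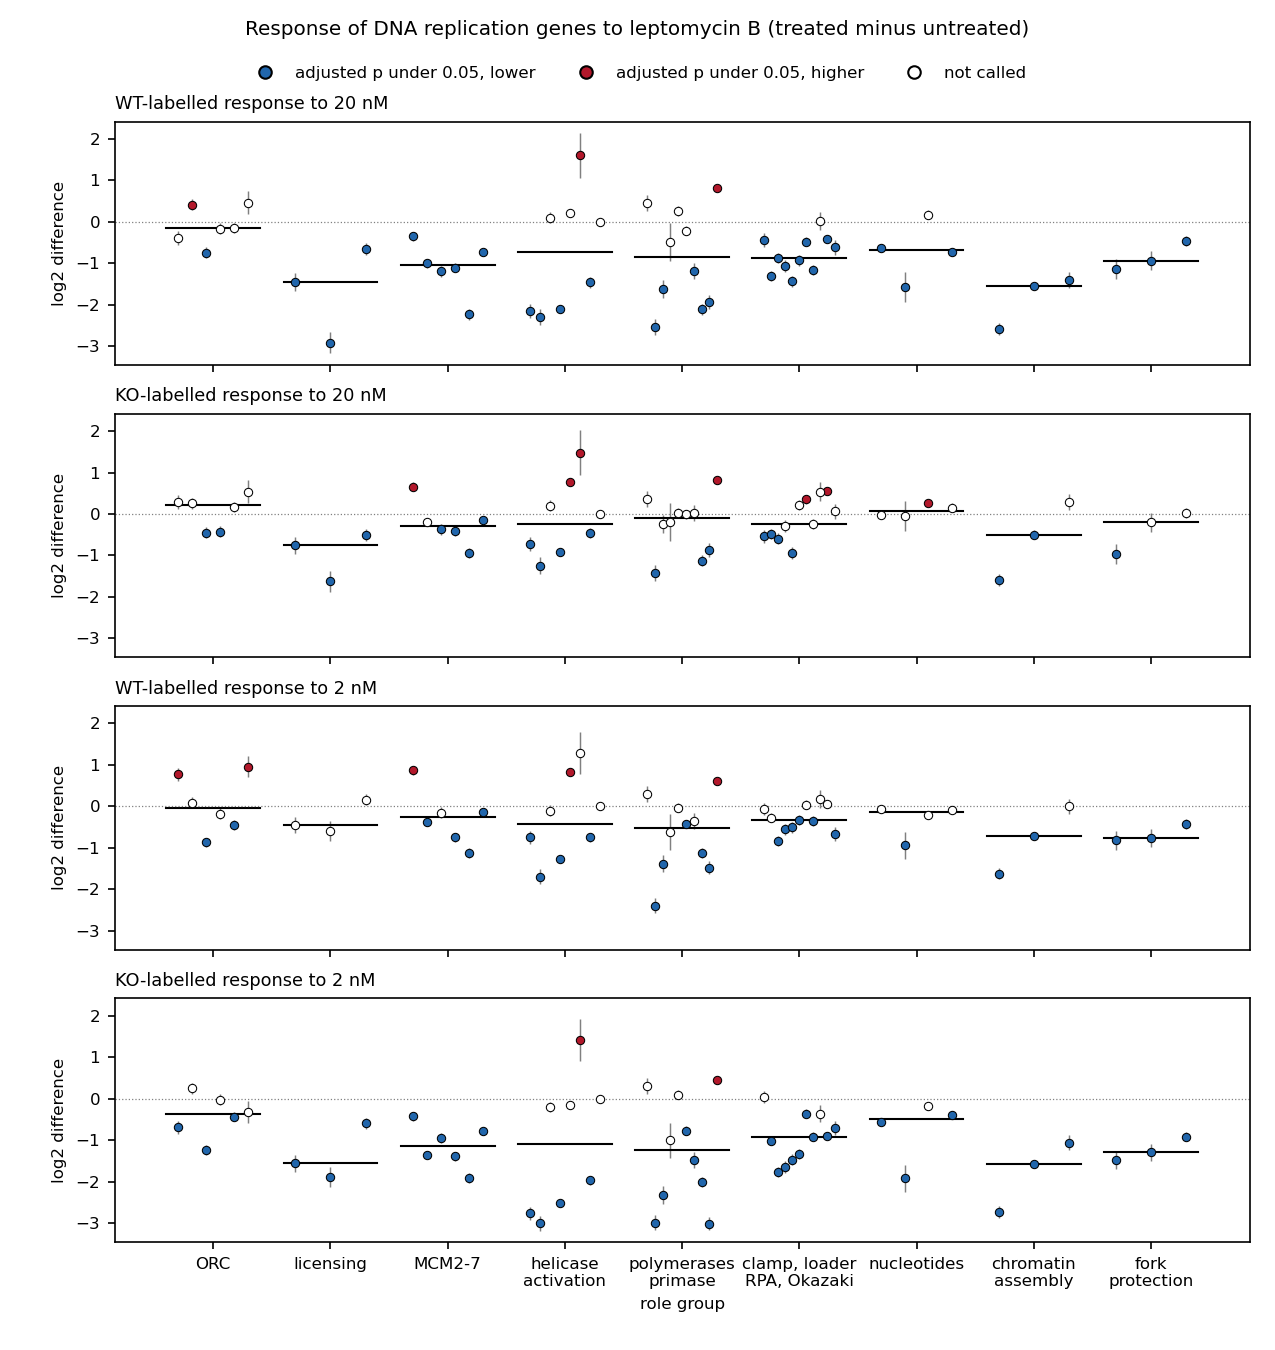
Log2 difference between treated and untreated arrays for each of the 54 genes (points) by role, 1 panel for each of the 4 responses. The 6 MCM2-7 genes lie below 0 in WT-labelled cells at 20 nM and in KO-labelled cells at 2 nM, while the origin recognition genes spread to both sides of 0.

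Called lower in all 4 responses were 16 genes: ORC3, MCM5, MCM6, MCM7, MCM10, CDC45, GINS2, CDC7, POLA2, POLE, POLE2, RFC2, RFC4, CHAF1A, CHAF1B and TIPIN. Another 14 fell in 3 responses, 10 in 2 and 2 in 1, and 12 in none. POLE3 rose in all 4, GINS4 in 3 and MCM2 and GINS3 in 2, and 4 genes (ORC1, MCM2, RPA1 and FEN1) rose in 1 response or more and fell in another. The 38 genes lower in WT-labelled cells at 20 nM and the 40 lower in KO-labelled cells at 2 nM, which share no arrays, had 37 genes in common, 97.4% of the first list and 92.5% of the second. The 23 lower in KO-labelled cells at 20 nM and the 27 lower in WT-labelled cells at 2 nM had 16 in common, 69.6% and 59.3%. How often all genes tested were called in several responses, or shared between such lists, was not counted, so these figures have no background beside them. DBF4, the activating subunit of CDC7, lay at or below the floor on all 26 arrays, so nothing can be said of its change.

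The origin recognition complex, the platform that marks origins, had few falls: of 6 genes, 1 fell in WT-labelled cells at 20 nM, 2 in KO-labelled cells at 20 nM, 2 in WT-labelled and 3 in KO-labelled cells at 2 nM. ORC3, a subunit of its core, was the only member of the complex to fall in all 4. Its intensity was 141, 112 and 117 on untreated WT-labelled arrays of the first series and 78.6, 71.9 and 69.7 at 20 nM, and 162, 107 and 113 on untreated KO-labelled arrays and 99.4, 94.04 and 81.7 at 20 nM. On arrays of the second series it was 225, 238, 201 and 217 on untreated WT-labelled arrays and 118, 127 and 116 at 2 nM, and 179, 221, 207 and 207 on untreated KO-labelled arrays and 96.2, 84.1 and 80.04 at 2 nM. No treated array reached the lowest untreated array of its label and series. On the log2 scale ORC3 changed by -0.74 ± 0.13 (SE, adjusted p = 9.21e-05) and -0.45 ± 0.13 (adjusted p = 0.00893) at 20 nM in WT-labelled and KO-labelled cells, and by -0.87 ± 0.12 (adjusted p = 1.05e-05) and -1.23 ± 0.12 (adjusted p = 8.46e-08) at 2 nM. The second of these calls was lost without untreated array 4 of the KO-labelled cells (-0.27, adjusted p of 0.0602) and without treated array 3 (-0.37, adjusted p of 0.0523). ORC1, the ATP-binding subunit whose level follows the cell cycle, rose at 2 nM in WT-labelled cells, by 0.78 on the log2 scale, and fell in KO-labelled cells, by 0.69. ORC6, the small subunit, rose by 0.96 in WT-labelled cells at 2 nM and had a log2 difference of -0.32 that did not pass the test in KO-labelled cells. ORC2 rose in WT-labelled cells at 20 nM (0.41), ORC4 fell in KO-labelled cells at 20 nM (-0.42), and ORC5 fell at 2 nM in both (-0.45 and -0.44).

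The licensing factors CDC6 and CDT1, which load the MCM ring, and GMNN, the inhibitor of CDT1, fell in every response except that of WT-labelled cells at 2 nM, where none of the 3 was called. CDT1 stood at 1473, 3255 and 3754 on untreated WT-labelled arrays and at 331, 338 and 375 at 20 nM. On KO-labelled arrays it went from 1682, 2867 and 3058 to 782, 807 and 797. For the second series the WT-labelled values were 2278, 2170.3, 2368 and 1819.8 untreated and 1322, 1427 and 1501 at 2 nM, and the KO-labelled values 2013, 2399.8, 2243 and 1562 and 594, 523 and 524. The lowest untreated values of each label were those of arrays 4 and 10, and all treated arrays lay below them. CDT1 changed by -2.92 ± 0.26 (adjusted p = 2.87e-08), -1.62 ± 0.26 (adjusted p = 5.95e-05), -0.60 ± 0.24 (adjusted p = 0.0601) and -1.89 ± 0.24 (adjusted p = 2.87e-06) on the log2 scale, in the order WT-labelled and KO-labelled at 20 nM, then WT-labelled and KO-labelled at 2 nM. The third value lay close to the threshold: it was called in 7 other settings, with adjusted p from 1.46e-06 to 0.0498, and was -0.68 without arrays 4 and 10. CDC6 had log2 differences of -1.45, -0.75, -0.45 and -1.56 in that order, of which the third did not pass, and it lay partly at the floor where it was lowest, so its falls are understated. GMNN had -0.65, -0.50, 0.16 and -0.60, again with the third not called.

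All 6 subunits of the MCM2-7 ring, the motor of the replicative helicase, fell in WT-labelled cells at 20 nM and in KO-labelled cells at 2 nM, with medians of -1.06 and -1.15 on the log2 scale. In the other 2 responses 4 of the 6 fell and 1, MCM2, rose. MCM6 read 85.3, 103 and 96.1 on untreated WT-labelled arrays and 23.6, 18.1 and 18.9 at 20 nM, and 68.9, 70.2 and 68.2 and 42.6, 31.5 and 35.1 on the KO-labelled arrays of that series. At 2 nM it went from 85.1, 86.5, 96.01 and 98.2 to 45.5, 45.6 and 35.2 on WT-labelled arrays and from 85.7, 89.3, 102 and 98.8 to 25.4, 22.01 and 27.3 on KO-labelled arrays. Treated and untreated arrays of a label and series did not overlap. The log2 differences of MCM6 were -2.23 ± 0.13 (adjusted p = 5.67e-11), -0.94 ± 0.13 (adjusted p = 8.79e-06), -1.13 ± 0.12 (adjusted p = 3.7e-07) and -1.92 ± 0.12 (adjusted p = 1.29e-10). MCM2 was the exception within the ring. Its intensity was 889, 1159.8 and 1031 untreated and 717, 779.7 and 909 at 20 nM on WT-labelled arrays, but 893, 1299.96 and 1169 untreated and 1779, 1773 and 1700.1 at 20 nM on KO-labelled arrays. The second series had the reverse, 846, 847, 745 and 786 untreated and 1483, 1531 and 1402 at 2 nM on WT-labelled arrays, and 831, 867, 853 and 893 and 622, 623 and 678 on KO-labelled arrays. Only the WT-labelled arrays of the first series overlapped between treated and untreated. MCM2 fell by 0.35 (adjusted p = 0.0134) and 0.43 (adjusted p = 0.00221) in the first and last of these and rose by 0.66 (adjusted p = 9.86e-05) and 0.87 (adjusted p = 1.86e-06) in the others, on the log2 scale. The fall at 20 nM was not called without untreated array 5 (-0.26, adjusted p 0.0877) or treated array 1 (-0.28, adjusted p 0.0779). MCM3, MCM4, MCM5 and MCM7 fell by 1.00, 1.20, 1.11 and 0.73 in WT-labelled cells at 20 nM and by 1.35, 0.95, 1.38 and 0.77 in KO-labelled cells at 2 nM. The 3 probes of MCM7 disagree. The probe used, the brightest, had -0.73, -0.16, -0.13 and -0.77 in the 4 responses, in the order WT-labelled and KO-labelled at 20 nM and then at 2 nM. A second had -0.11, 0.31, -0.44 and -1.46, and the dimmest 0.98, 1.24, 1.17 and -0.25, so the fall of MCM7 in the second of these was measured by the brightest probe alone, and the dimmest probe went the other way in the first 3.

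Helicase activation divided into 4 genes that fell in every response and 4 that fell in none. Of the latter, DBF4 lay at or below the floor on all 26 arrays and GINS1 lay near it, which left little or no room for a fall. CDC45, the helicase partner of MCM2-7 and GINS, was at 112, 199 and 195 on untreated WT-labelled arrays and 35.2, 32.5 and 32.3 at 20 nM, and at 134, 145 and 142 and 56.2, 61.5 and 60.5 on KO-labelled arrays. Second-series values were 126, 129, 124 and 105 untreated and 36.7, 39.5 and 35.6 at 2 nM on WT-labelled arrays, and 152, 153, 126 and 86.3 and 17.1, 13.5 and 16.7 on KO-labelled arrays. Treated and untreated arrays did not overlap, and the KO-labelled arrays at 2 nM were the lowest of all 26. CDC45 fell by 2.29 (adjusted p = 1.52e-08) and 1.24 (adjusted p = 4.88e-05) at 20 nM and by 1.70 (adjusted p = 5.15e-07) and 3.01 (adjusted p = 1.07e-10) at 2 nM, WT-labelled first, on the log2 scale. MCM10, which binds the helicase as it is activated, fell by 2.16, 0.73, 0.74 and 2.77 in the same order. GINS2 fell by 2.11, 0.91, 1.27 and 2.52, and the kinase CDC7 by 1.47, 0.47, 0.75 and 1.97.

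GINS is a complex of 4 subunits, and their transcripts went in different directions. Against the falls of GINS2, GINS3 rose in KO-labelled cells at 20 nM and WT-labelled cells at 2 nM. It read 369, 319.7 and 329 untreated and 374, 394 and 416 at 20 nM on WT-labelled arrays, and 426, 471 and 386 and 643, 776 and 787 on KO-labelled arrays. At 2 nM it read 863, 877 and 898 on WT-labelled arrays against 486, 473, 539 and 486 untreated, and 431, 447 and 446 on KO-labelled arrays against 502, 518, 550.4 and 401 untreated. GINS3 was higher without overlap on treated arrays except on the KO-labelled ones at 2 nM. Its log2 differences were 0.22 ± 0.10 (adjusted p = 0.0869), 0.78 ± 0.10 (adjusted p = 4.77e-06), 0.83 ± 0.09 (adjusted p = 9e-07) and -0.15 ± 0.09 (adjusted p = 0.222). GINS4 was higher on every treated array than on any untreated array of its label and series, with 36.8, 54.8 and 63.4 untreated and 175, 161 and 129 at 20 nM on WT-labelled arrays, and 50.2, 39.2 and 49.01 and 127, 116 and 139.7 on KO-labelled arrays. Untreated array 10 of each label was far below the rest of the second series: WT-labelled arrays read 155, 168, 215 and 48.96 untreated and 344, 269 and 329.99 at 2 nM, and KO-labelled arrays 225, 232, 223 and 39.1 and 390.02, 416 and 358. GINS4 changed by 1.61 ± 0.54 (adjusted p = 0.0212), 1.47 ± 0.54 (adjusted p = 0.0391), 1.28 ± 0.51 (adjusted p = 0.0561) and 1.41 ± 0.51 (adjusted p = 0.0302) on the log2 scale. These calls depend on single arrays. The first was lost without treated array 1 or 2 or untreated array 4 (adjusted p 0.0537 to 0.0795), the second without any 1 of its 6 arrays, and the fourth without any 1 of its 3 treated arrays (adjusted p 0.0578 to 0.0805) or untreated array 10 (0.77, adjusted p 0.0924) and in the restricted fit (adjusted p 0.196). With slide as a random block the first 2 had adjusted p values of 0.147 and 0.166. The third was called in 5 other settings and was 0.82 without arrays 4 and 10 (adjusted p 0.000135). GINS1 lay near the floor on most arrays of the first series and passed no test.

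Among the polymerases and primase, 5, 3, 5 and 6 of 10 genes fell in the 4 responses, and POLE3 rose in each. POLA2, the regulatory subunit of polymerase alpha-primase, had the largest mean fall over the 4 responses. Its values were 217, 178 and 169 untreated and 31.6, 29.4 and 35.8 at 20 nM on WT-labelled arrays, and 186, 95.3 and 99.9 and 47.5, 46.3 and 42.7 on KO-labelled arrays. At 2 nM they were 39.7, 45.9 and 53.7 on WT-labelled arrays against 266, 244, 250.03 and 213 untreated, and 33.2, 34.4 and 36.9 on KO-labelled arrays against 281, 324, 292 and 222 untreated. Every treated array lay below every untreated array of its label and series. POLA2 fell by 2.54 (adjusted p = 3.21e-09), 1.41 (adjusted p = 1.03e-05), 2.40 (adjusted p = 5.31e-09) and 2.99 (adjusted p = 9.69e-11) on the log2 scale. The catalytic subunit of polymerase epsilon, POLE, fell by 2.11, 1.13, 1.12 and 2.02, and its second subunit POLE2 by 1.93, 0.87, 1.49 and 3.02. PRIM1, the catalytic primase, had -1.63, -0.25, -1.38 and -2.32, of which the second did not pass. POLA1, POLD1 and PRIM2 passed no test in any response.

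POLE3, a histone-fold subunit of polymerase epsilon that also belongs to a chromatin remodelling complex, was the opposite of POLE and POLE2. It read 4049, 3693 and 4047 untreated and 6239.6, 6986 and 7542 at 20 nM on WT-labelled arrays, and 4316, 4285 and 4713 and 7267, 7842 and 8402 on KO-labelled arrays. Arrays of the second series read 6295, 5906, 6601 and 5622 untreated and 9425, 9378 and 9216 at 2 nM on WT-labelled arrays, and 6244, 6065, 5808 and 5402 and 7831, 8014 and 8019 on KO-labelled arrays. Treated arrays lay above untreated arrays in all 4 responses without overlap. The rises were 0.81 ± 0.07 (adjusted p = 2.27e-08), 0.82 ± 0.07 (adjusted p = 4.16e-08), 0.62 ± 0.07 (adjusted p = 5.73e-07) and 0.44 ± 0.07 (adjusted p = 2.09e-05) on the log2 scale.

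The clamp PCNA, its RFC loader, the single-strand binding protein RPA and the enzymes FEN1 and LIG1 that finish Okazaki fragments make up 11 genes, of which 10, 4, 6 and 9 fell in the 4 responses. RFC4, a loader subunit, read 1394, 2174 and 2167 untreated and 735, 661 and 677 at 20 nM on WT-labelled arrays, and 1384, 2101 and 1979 and 996, 862 and 951 on KO-labelled arrays. Second-series arrays read 1788, 1799, 1840.4 and 1848 untreated and 1310.1, 1268 and 1270.05 at 2 nM on WT-labelled arrays, and 1960.1, 2015, 2076 and 1761 and 679, 704 and 720.3 on KO-labelled arrays. It was lower on every treated array. The falls were 1.44 (adjusted p = 1.11e-07), 0.94 (adjusted p = 3.25e-05), 0.50 (adjusted p = 0.00525) and 1.48 (adjusted p = 2.72e-08) on the log2 scale. RFC1, the large subunit, fell by 1.31 and 0.48 at 20 nM and by 1.02 in KO-labelled cells at 2 nM, and RFC2 fell in all 4, by 0.60 to 1.76. RFC5 fell by 0.93, 0.33 and 1.34, and had 0.22 without a call in KO-labelled cells at 20 nM. RPA1 and FEN1 fell in WT-labelled cells at 20 nM (-0.48 and -0.42) and KO-labelled cells at 2 nM (-0.36 and -0.89) but rose in KO-labelled cells at 20 nM (0.35 and 0.56).

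PCNA, a widely used marker of proliferating cells and also a known p53 target, was measured by 3 probes that disagree. Its brightest probe read 4545, 7461 and 7364 untreated and 5239, 4861 and 3933 at 20 nM on WT-labelled arrays, and 3919.8, 5031 and 5441 and 3304, 3457 and 3085 on KO-labelled arrays. At 2 nM it read 4230.2, 4226 and 4219 on WT-labelled arrays against 4369.9, 4172, 3888 and 5332 untreated, and 4934, 4931 and 5118 on KO-labelled arrays against 4524, 4908, 4747 and 5289 untreated. Only the KO-labelled arrays at 20 nM were all below their untreated arrays. The log2 differences were -0.44 ± 0.16 (adjusted p = 0.0312), -0.54 ± 0.16 (adjusted p = 0.0117), -0.06 ± 0.15 (adjusted p = 0.951) and 0.04 ± 0.15 (adjusted p = 1.0). A dimmer probe, above the floor on all 26 arrays, had log2 differences of -0.81, 0.11, -0.44 and -1.44 in the same order, lowest in the 2 responses in which RFC4 fell most. With all probes averaged, PCNA fell by 0.62 in KO-labelled cells at 2 nM (adjusted p 2.3e-05). Both calls at 20 nM of the brightest probe were lost with slide as a random block and in the fit restricted to the arrays compared, the first also without treated array 3 or untreated array 5 or 6, and the second without untreated array 6.

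Of the 4 nucleotide supply genes, 3 fell in WT-labelled cells at 20 nM and in KO-labelled cells at 2 nM, 1 in WT-labelled cells at 2 nM and 0 in KO-labelled cells at 20 nM. RRM2, the S-phase subunit of ribonucleotide reductase, read 535, 1992 and 1818 untreated and 393, 421 and 439.97 at 20 nM on WT-labelled arrays, and 1019, 1134 and 1044 and 1074, 990.3 and 1026 on KO-labelled arrays. At 2 nM it read 764, 886 and 924 on WT-labelled arrays against 1890.3, 1984, 1762 and 1104 untreated, and 299, 329 and 302 on KO-labelled arrays against 1274, 1459.5, 1441 and 708 untreated. Untreated arrays 4 and 10 were again the lowest of their groups, and the KO-labelled arrays of the first series overlapped. RRM2 changed by -1.58 ± 0.36 (adjusted p = 0.00119), -0.05 ± 0.36 (adjusted p = 1.0), -0.94 ± 0.33 (adjusted p = 0.0322) and -1.92 ± 0.33 (adjusted p = 8.86e-05) on the log2 scale. The third call was lost without any 1 of the 3 treated arrays or of untreated arrays 7, 8 and 9, with adjusted p from 0.059 to 0.105. RRM1, the large subunit, fell by 0.62 and 0.56, and the thymidine kinase TK1 by 0.73 and 0.40, in WT-labelled cells at 20 nM and in KO-labelled cells at 2 nM. TYMS, thymidylate synthase, fell in no response and rose in KO-labelled cells at 20 nM (0.27).

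The chromatin assembly genes, whose products place histones on new DNA, and the fork protection genes all fell in WT-labelled cells at 20 nM and in KO-labelled cells at 2 nM. CHAF1A, the large subunit of chromatin assembly factor 1, read 103, 122 and 129 untreated and 22.3, 18.1 and 18.8 at 20 nM on WT-labelled arrays, and 96.3, 103 and 106 and 31.2, 35.1 and 36.03 on KO-labelled arrays. Its second-series values were 162, 151, 173 and 117 untreated and 50.4, 47.9 and 47.3 at 2 nM on WT-labelled arrays, and 205, 194, 197 and 133 and 27.8, 27.5 and 26.02 on KO-labelled arrays. It was well below untreated on every treated array. The falls were 2.58 (adjusted p = 5.94e-11), 1.58 (adjusted p = 8.68e-08), 1.62 (adjusted p = 2.34e-08) and 2.73 (adjusted p = 6.93e-12) on the log2 scale. CHAF1B fell by 1.55, 0.50, 0.72 and 1.59, whereas the histone chaperone ASF1B fell by 1.41 and 1.06 in the first and last of these and had 0.30 and -0.00 without a call in the others. TIPIN, which with TIMELESS steadies stalled forks, read 187, 314 and 324 untreated and 129, 136 and 103 at 20 nM on WT-labelled arrays, and 218, 468 and 418 and 174, 184 and 178 on KO-labelled arrays. In the second series TIPIN read 409.6, 391, 393 and 295 untreated and 218, 211 and 198 at 2 nM on WT-labelled arrays, and 379.7, 398, 369.9 and 272 and 135, 127 and 114 on KO-labelled arrays. Treated and untreated arrays did not overlap in any response. TIPIN fell by 1.13 (adjusted p = 0.000616), 0.97 (adjusted p = 0.00297), 0.82 (adjusted p = 0.00624) and 1.49 (adjusted p = 1.74e-05) on the log2 scale. TIMELESS and the checkpoint adaptor CLSPN fell in all responses but that of KO-labelled cells at 20 nM, by 0.94, 0.76 and 1.30 and by 0.47, 0.43 and 0.91. CLSPN lay partly at the floor where it was lowest, so its falls are understated.

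**Figure D3:**
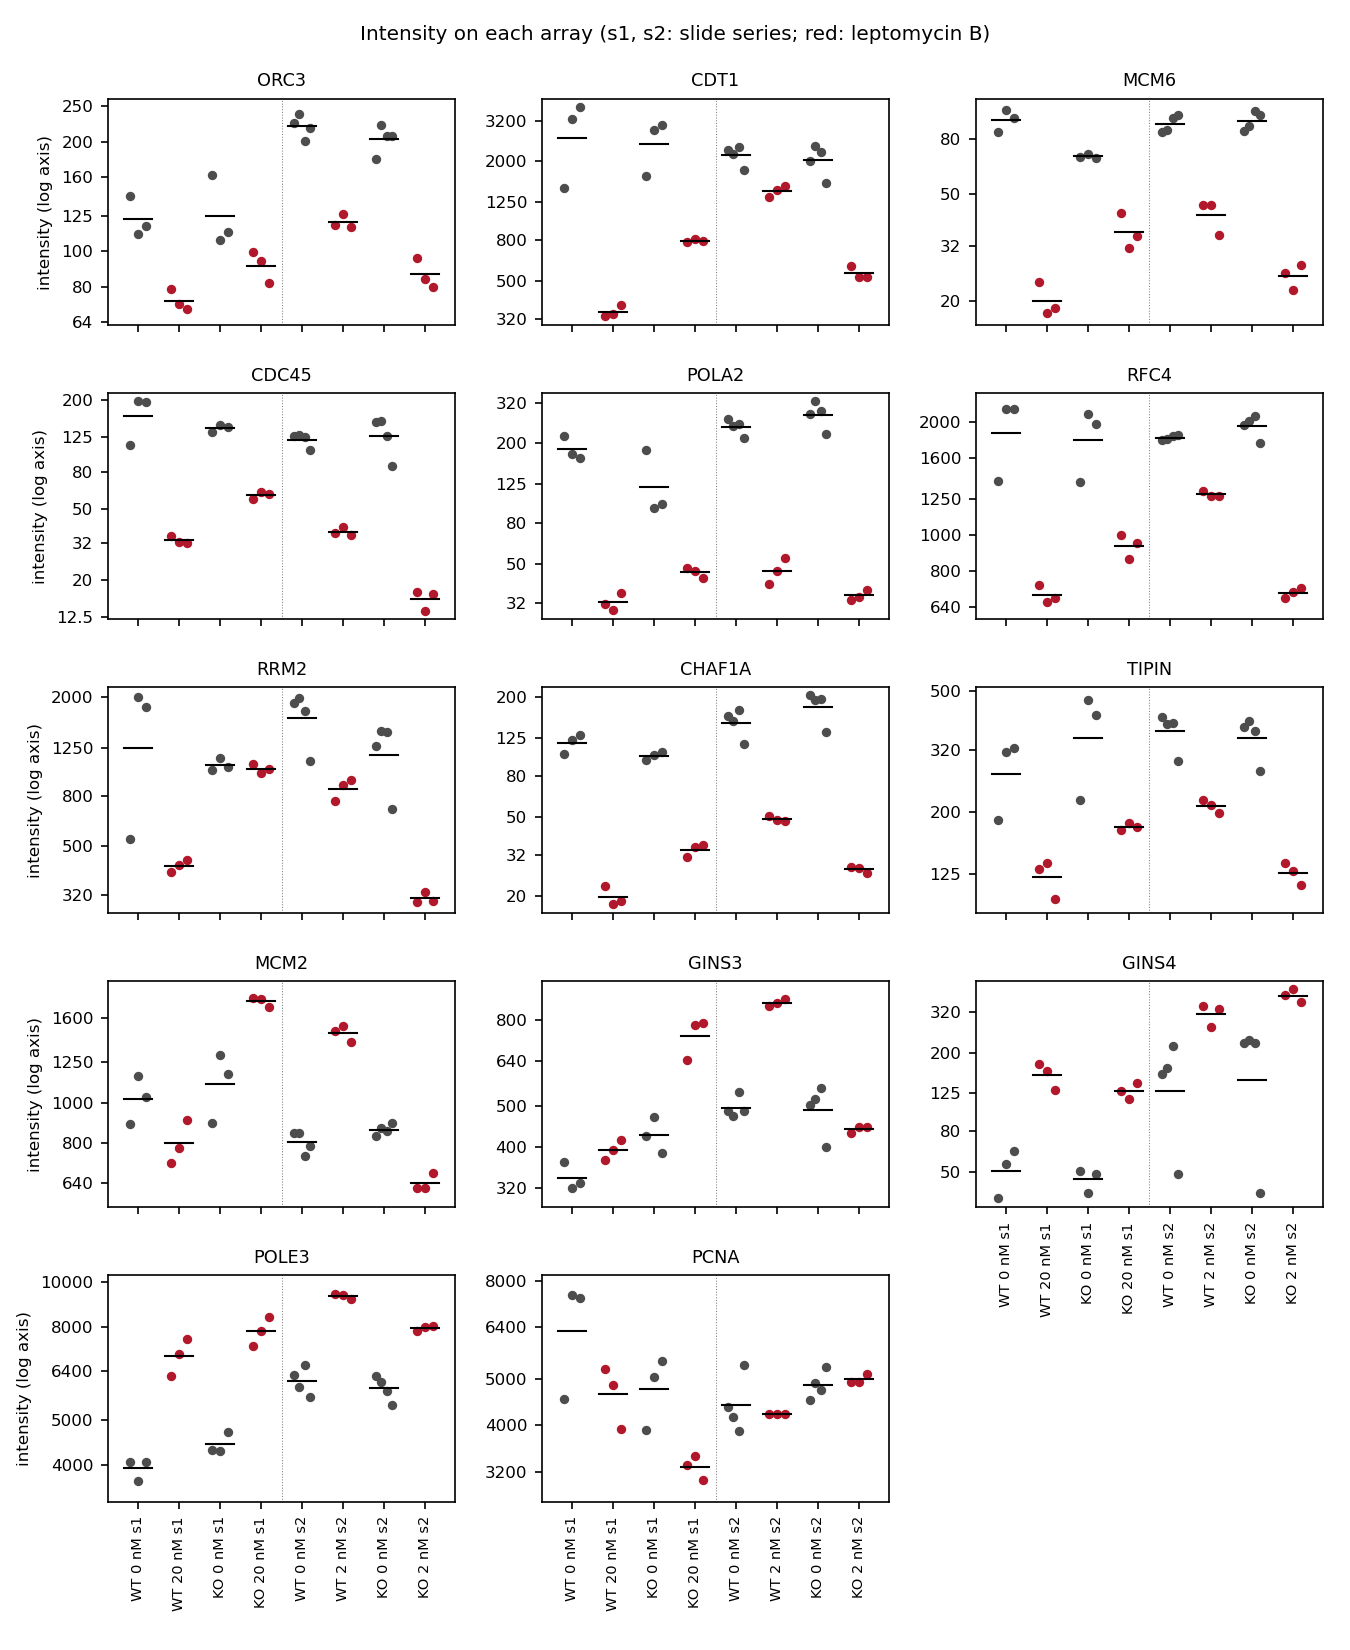
Intensity (log axis) of the 14 genes with values on each array, by label, dose and slide series (s1, s2), with each array as a point, treated arrays in red and the mean of each group as a line. POLE3 is above untreated and CHAF1A below untreated on every treated array, and MCM2 moves in opposite directions in the 2 labels at each dose.

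The difference between labels in the response was tested directly, and it had opposite signs at the 2 doses. At 20 nM the response of KO-labelled cells lay above that of WT-labelled cells for 28 of 54 genes and below it for 0, with a median difference of 0.70 on the log2 scale, where 4.92% of all genes were called higher and 3.93% lower. At 2 nM it lay below for 31 genes and above for 0, with a median of -0.75, against 5.99% lower and 5.94% higher among all genes. At both doses 25 genes were called, and all 25 changed sign, as did 680 of the 686 genes so called over the whole array, so the reversal is not particular to replication genes. MCM2-7 were called 6 of 6 at each dose and the 3 chromatin assembly genes likewise. The difference for MCM10 was 1.43 ± 0.24 (adjusted p = 0.00054) at 20 nM and -2.02 ± 0.22 (adjusted p = 3e-06) at 2 nM, and for ASF1B 1.71 ± 0.27 (adjusted p = 0.000311) and -1.06 ± 0.25 (adjusted p = 0.0072). For CDT1 it was 1.29 ± 0.37 (adjusted p = 0.0325) and -1.29 ± 0.34 (adjusted p = 0.0161), and the first was lost without any 1 of 7 arrays, with adjusted p up to 0.0901. POLE3 had 0.01 ± 0.10 (adjusted p = 1.0) and -0.18 ± 0.09 (adjusted p = 0.294), ORC3 0.29 ± 0.18 (adjusted p = 0.419) and -0.36 ± 0.17 (adjusted p = 0.221), and TIPIN 0.16 ± 0.34 (adjusted p = 0.958) and -0.66 ± 0.31 (adjusted p = 0.219), none of them called. With the replicate number as a block, those at 2 nM were called for TIPIN (adjusted p 0.00114), ORC3 (adjusted p 0.0337) and POLE3 (adjusted p 0.0319), as were RFC4 and RRM2 at 20 nM and POLA2 at 2 nM. The numbers did not pair the treated arrays, and whether they paired the untreated ones was not settled. TIPIN at 2 nM was also called without arrays 4 and 10 (adjusted p 0.00044) and in the restricted fit (adjusted p 0.0494), and ORC3 at 20 nM without KO-labelled array 4 (0.48, adjusted p 0.0275). The order of the labels in CDKN1A also reversed between the slide series, and its part in these differences was not tested. In the fit restricted to the arrays compared, the differences at 20 nM of CDT1, CDC45, POLA2 and GINS3 were not called, and with slide as a random block those of CDC45, POLA2 and GINS3.

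**Figure D4:**
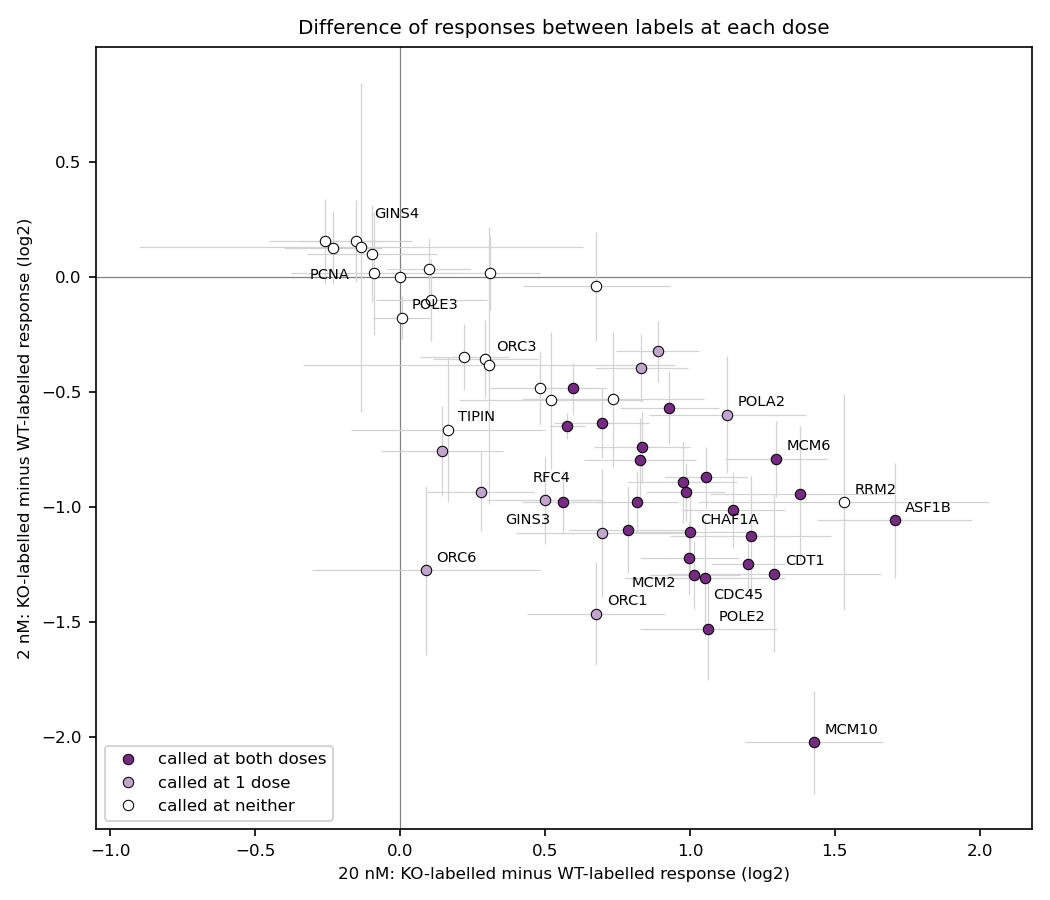
Difference of the responses (KO-labelled minus WT-labelled, log2) at 20 nM on the x axis and at 2 nM on the y axis for the 54 genes, with bars of 1 SE and the fill showing at how many doses the difference was called. The 25 genes called at both doses lie at the lower right, above 0 at 20 nM and below 0 at 2 nM.

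Genes activated by p53 differed among the same groups of arrays. Of 17 such genes tested, 9 rose and 1 fell in WT-labelled cells at 20 nM (median log2 difference 0.89), 2 rose and 1 fell in KO-labelled cells at 20 nM (0.03), 5 rose in WT-labelled cells at 2 nM (0.32) and 16 rose in KO-labelled cells at 2 nM (2.27). The shares called higher were 52.9%, 11.8%, 29.4% and 94.1%, against 21.1%, 18.3%, 17.4% and 21.6% of all genes. SESN1, a stress-response inhibitor of growth signalling, rose by 2.99, 1.22 and 4.31 in the first, the third and the fourth of these and had 0.75 without a call in the second. Other genes of the list went differently. In WT-labelled cells at 20 nM CDKN1A (0.59) and GDF15 (0.08) were not called, and DDB2 fell by 0.98. PLK2 rose by 1.52 in KO-labelled cells at 20 nM. Without the drug, 11 of the 17 were lower and 0 higher in KO-labelled than in WT-labelled cells of the first series (median -1.33). Of all genes, 7.79% were lower and 7.07% higher there. In the second series 1 of the 17 was lower and 8 were higher (median 0.69), against 4.79% and 4.36% of all genes. The part of the p53-activated genes in the falls of the replication genes was not tested.

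Doses were compared within each label, although each dose has its own slide series and untreated arrays. The order of the labels in CDKN1A reversed between the series, so a label is not known to name the same cells at both doses. In WT-labelled cells the 20 nM response was lower than the 2 nM response for 26 genes and higher for 0 (median -0.52, against 9.94% and 9.57% of all genes). In KO-labelled cells it was higher for 39 and lower for 0 (median 0.84, against 10.5% and 10.9%). Across labels, the WT-labelled response at 20 nM and the KO-labelled response at 2 nM differed for 6 genes, all higher at 20 nM (GINS2, POLD2, POLE2, POLE3, RFC2 and FEN1), where 8.61% of all genes were called, 4.03% higher and 4.57% lower. The KO-labelled response at 20 nM and the WT-labelled response at 2 nM differed for 5, all higher at 20 nM (ORC5, POLA2, PRIM1, FEN1 and TYMS), where 6.39% were called, 3.08% higher and 3.31% lower. Those 2 small counts rest on untreated arrays 4 and 10: without them 30 and 31 genes were called, and 40.9% and 43% of all genes. The count of 6 was 13 without WT-labelled array 4 and 12 without KO-labelled array 10, and the count of 5 was 23 without KO-labelled array 4.

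Without the drug, the number of replication genes called between labels changed with the arrays and the fit used. In the first series 7.79% of all genes tested were lower and 7.07% higher in KO-labelled cells. Of the replication genes 8 (14.8%) were lower and 1 (1.85%) higher, with a median of -0.06 on the log2 scale. The 9 were PRIM1 (-0.80), TK1 (-0.65), POLA2 (-0.63), LIG1 (-0.58), ASF1B (-0.57), MCM6 (-0.45), RPA2 (-0.41) and CHAF1B (-0.35), all lower, and GINS3 (0.33), which was higher. In the second series TIMELESS was lower (-0.64, adjusted p = 0.0432) and MCM7 higher (0.17, adjusted p = 0.00492), with a median of 0.03 and 4.79% and 4.36% of all genes lower and higher. Label and slide cannot be told apart in the second series, where each label had 1 slide. It was not settled whether replicate numbers pair the untreated arrays of the labels. With the number as a block 18 genes were called in the first series (13 lower and 5 higher) and 11 in the second (3 lower and 8 higher), when 30.8% and 21.5% of all genes were. Without arrays 4 and 10 the counts were 23 and 13, against 39.5% and 28.1% of all genes. Slide 4 was the 1 slide with untreated arrays of both labels; it held WT-labelled arrays 4, 5 and 6 but of the KO-labelled ones only array 4, which stood apart, so a comparison within a slide has no replicate for the KO label.

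Other S-phase genes fell more often than they rose in all 4 responses. Of 46 other replication and S-phase genes tested, 26 fell and 5 rose in WT-labelled cells at 20 nM (median -0.56), 15 and 4 in KO-labelled cells at 20 nM (-0.16), 12 and 3 in WT-labelled cells at 2 nM (-0.23), and 29 and 4 in KO-labelled cells at 2 nM (-0.82). Their shares called lower were 56.5%, 32.6%, 26.1% and 63%, against 22.2%, 18.8%, 19.1% and 21.8% of all genes. NASP, a histone chaperone, fell by 2.15, 1.69 and 2.51 in the first, the third and the fourth of these and had -0.55 without a call in the second. UHRF1, which maintains DNA methylation after replication, fell by 2.07, 0.79, 0.55 and 2.46. DTL, an adaptor of the ubiquitin ligase that destroys CDT1, fell by 2.10, 0.35 and 2.12 in the first, the second and the fourth, with -0.17 and no call in the third. CHTF8, part of an alternative clamp loader, rose in all 4, by 1.80, 1.73, 1.25 and 1.24.

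Of 22 genes of the E2F and RB families and their partners, 13 fell and 3 rose in WT-labelled cells at 20 nM (median -0.46), 4 and 4 in KO-labelled cells at 20 nM (0.03), 5 and 4 in WT-labelled cells at 2 nM (-0.04), and 12 and 4 in KO-labelled cells at 2 nM (-0.50). Shares called lower were 59.1%, 18.2%, 22.7% and 54.5%, so in the second and the third they lay near the 18.8% and 19.1% of all genes. E2F2, an activator of the family, fell by 2.38, 0.47 and 1.85 in the first, the second and the fourth and had -0.04 without a call in the third. E2F8, a repressor, fell by 1.82 and 1.65 in the first and the fourth, with 0.14 and 0.30 and no call in the others. Cyclin A2 (CCNA2) fell by 1.78, 0.55 and 2.70 and had 0.09 without a call in KO-labelled cells at 20 nM. Cyclin E1 (CCNE1), the partner of CDK2 at the start of S phase, rose in all 4, by 0.82, 2.05, 1.62 and 0.71. LIN54, a DNA-binding subunit of the DREAM complex, fell in all 4, by 1.71, 1.53, 1.04 and 1.47.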

How the data were processed

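Intensities on a linear scale, 1 per probe and array, were deposited by the authors, who made them with BeadStudio per the submitters' processing notes (version, background correction and normalization: not given in the sources used here). All 26 array columns were used, and 0 others were present. Of the values, 20.41% were below 0 and 49.7% at or below 10. Of 22177 probes, 21101 had 1 gene symbol in the platform annotation, 0 several and 1076 none. The brightest probe stood for a gene. A floor of 10 was applied before log2 transformation, which understates the change of dim genes. Genes above an array's 40th percentile on at least 3 arrays were tested (12962). That percentile was 5.59 to 5.61, under the floor, and 10747 genes exceeded the floor itself on 3 arrays.

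Arrays were grouped by label, dose and slide series (8 groups, 18 residual degrees of freedom) and fitted together with limma 3.58.1 in R 4.3.3 (random blocks with statmod 1.5.0, labels read through jsonlite 2.0.0). Benjamini-Hochberg adjustment ran over all genes tested in each of 12 comparisons, and an adjusted p under 0.05 was a call. Differences between responses were tested as contrasts. In data simulated for 12962 genes, falls of 0.5, 1 and 2 on the log2 scale were put into 67, 67 and 66 genes. They were called in 19.4%, 86.6% and 100% for the WT-labelled and 17.9%, 64.2% and 98.5% for the KO-labelled response at 20 nM, and in 32.8%, 85.1% and 100% and 20.9%, 85.1% and 98.5% at 2 nM. The simulated falls were put only into brighter genes, with independent noise. In the data 4731 to 5631 genes were called in each response, which loosens the adjusted threshold. The rates therefore do not give the power of the tests above. In the untreated arrays, deviations from group means correlated between same-numbered arrays of the labels (0.687 to 0.761 in the first series, 0.327 to 0.814 in the second). The values were 0.0448 to 0.102 at 20 nM and -0.0444 to -0.0286 at 2 nM. Untreated arrays 4 and 10 stood apart in both labels, and arrays with different numbers were not compared. These correlations therefore cannot settle whether numbers pair the untreated arrays. The main fit used no replicate block. The alternative fit with a replicate block applied it to treated and untreated arrays alike.

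Genes were matched to RefSeq promoter windows by symbol. Per-array values are given for the gene of each role with the largest mean fall, for genes called higher in at least 2 responses and for PCNA. Of the other lists a few genes are named, not always those with the largest change in a response. Not named above, for example, are CTPS1 (mean 555 untreated and 156 at 2 nM, WT-labelled) and TOPBP1 (712 and 289 at 20 nM, KO-labelled). MCM10, ASF1B and the other genes given by their change were chosen after their values were seen. The members, lists and rule were chosen with earlier results of these data known. The transcript of the gene deleted in the knockout is not reported here. Alternatives covered the floor, log scale, normalization, filter, probe choice, arrays fitted, slide, replicate block and each array in turn.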

Additional observations from a re-analysis of the deposited data

Results flagged for a closer look

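On 3 occasions 1 untreated array lay far from the other 3 of its group, among 28 sets of 4 values examined. These sets were the 14 genes with per-array values on the second-series untreated arrays of each label. They share arrays and are not independent, so a chance rate of about 1 in 20 cannot be set against them. All 3 were array 10, which stood apart as a whole. CHAF1A read 133 on KO-labelled untreated array 10 against 194 to 205 on the others. GINS4 read 39.1 on that same array against 223 to 232. TIPIN read 295 on WT-labelled untreated array 10 against 391 to 410.

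The responses of the labels differed by a direct test at both doses. At 20 nM the difference, KO-labelled minus WT-labelled, was called for 28 members, among them CDT1 (1.29), MCM6 (1.30), CDC45 (1.05), POLA2 (1.13), CHAF1A (1.00), MCM2 (1.02) and GINS3 (0.56), on the log2 scale. At 2 nM it was called for 31, among them CDT1 (-1.29), MCM6 (-0.79), CDC45 (-1.31), RFC4 (-0.97), CHAF1A (-1.11), MCM2 (-1.30) and GINS3 (-0.98). Of all genes tested, 4.92% were called higher at 20 nM and 5.99% lower at 2 nM in this difference. Between doses, 26 members differed in WT-labelled cells, all lower, and 39 in KO-labelled cells, all higher, against 9.94% and 10.5% of all genes. Between the WT-labelled response at 20 nM and the KO-labelled response at 2 nM 6 members (11.1%) differed, against 8.61% of all genes. Between the other 2 responses 5 (9.26%) did, against 6.39%. These last 2 shares lie near those of all genes, and both counts rest on untreated arrays 4 and 10, as given above.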

How the results depend on the processing

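The 4 responses kept their direction in every setting run: medians over the members ranged from -0.88 to -0.65 for WT-labelled cells at 20 nM, -0.19 to -0.12 for KO-labelled cells at 20 nM, -0.39 to -0.27 for WT-labelled cells at 2 nM and -1.02 to -0.77 for KO-labelled cells at 2 nM. Leaving out 1 array at a time gave 37 to 39, 20 to 22, 24 to 29 and 40 to 42 genes lower in these. It gave 25 to 34 and 28 to 31 genes for the label differences at 20 and 2 nM, 23 to 30 and 33 to 41 for the dose differences in WT-labelled and KO-labelled cells, 2 to 13 for the WT-labelled response at 20 nM against the KO-labelled one at 2 nM, and 0 to 23 for the other pair. Calls over all 12962 genes, in either direction, moved in the same runs. They were 823 to 2594 and 1281 to 1812 for the label differences, and 1886 to 3367 and 1936 to 4419 for the dose differences. For the pairs across labels they were 576 to 2581 and 187 to 3715. For untreated cells, leaving out 1 array gave 2 to 19 genes in the first series (19 without KO-labelled array 4, and 2, 3, 2 and 4 without KO-labelled arrays 5 and 6 and WT-labelled arrays 5 and 6) and 1 to 4 in the second (4 without KO-labelled array 10). Over all genes 1100 to 3850 were called in the first series and 861 to 1516 in the second. In the fit restricted to the arrays compared, counts were 14 for KO-labelled cells at 20 nM, 0 for untreated cells of the first series, and 3 and 0 for the pairs across labels. With slide as a random block they were 2 and 0 for untreated cells and 0 for KO-labelled at 20 nM against WT-labelled at 2 nM. A floor of 5 gave 3 for the first pair across labels and 1 for untreated cells of the second series, as did a floor of 20 and no filter (1 each). Without arrays 4 and 10 of both labels, untreated counts were 23 and 13 and those across labels 30 and 31. With the replicate block, untreated counts were 18 and 11. Within slide 4, 3 WT-labelled untreated arrays set against the 1 KO-labelled one there, array 4, gave 3, with that lone array assumed to vary like the other groups; this says nothing of the label difference. Fewer arrays enter the restricted and within-slide fits; otherwise the cause was not tested. The block changed no other count by over 1.5 times. With the mean of all probes PCNA reversed, to -0.62 in KO-labelled cells at 2 nM and to -0.47 in the label difference there, since its dimmer probes fell. Of 1680 values of named genes under other settings, 1588 kept direction and call, 34 gained and 56 lost a call, and 2 reversed. Genes near background, DBF4 and GINS1 among them, give no measured change.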
